A study of Mus musculus with 17 samples.

Results

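The 7 genes followed encode the RUNX transcription factors Runx1 and Runx2, their shared partner Cbfb, and the CCAAT/enhancer-binding proteins Cebpa, Cebpb, Cebpd and Cebpg. They were chosen by symbol, and all 7 were found among the 25198 rows of the gene count table. The samples were antral follicles of CD1 mice aged 16 days, grown for 8 days by encapsulated in vitro follicle growth (eIVFG), a three-dimensional follicle culture. Each sample pooled 3 follicles. The Tyrphostin group (6 libraries) had been exposed for 4 h to human chorionic gonadotropin (hCG), which acts on the luteinizing hormone receptor, with Tyrphostin-AG1478 at 10 µM, an inhibitor of the kinase of the epidermal growth factor (EGF) receptor, dissolved in DMSO. The Control group has 11 libraries. The labels attach 1 treatment text, naming both hCG and the inhibitor, to all samples, and they do not say if the Control group was given hCG or DMSO. Batch 1 holds 6 Control and 3 Tyrphostin libraries, and batch 2 holds 5 and 3. Whether the libraries came from separate animals or cultures is not stated, so p-values measure the spread between these libraries, which may be partly technical.

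RUNX proteins bind DNA through a Runt domain, and CBFβ, the product of Cbfb, does not bind DNA itself but stabilizes RUNX on its sites. C/EBP proteins are basic leucine zipper factors that bind DNA as dimers with one another or with other zipper proteins. In granulosa cells, the somatic cells lining the follicle, luteinizing hormone acts in part through EGF-like ligands, the EGF receptor and the kinases ERK1/2. RUNX1, RUNX2, C/EBPα and C/EBPβ are known from mouse and rat ovaries as factors of ovulation and of luteinization, the conversion of granulosa cells into progesterone-producing luteal cells.

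RefSeq promoter windows (GRCm38.p6, 250 bases before to 50 bases after each gene start) were matched for 6 of the 7 genes, and Runx1 had 2 windows, one for each of its known distal and proximal promoters. The longest stretch shared by the distal Runx1 window and the Runx2 window had 22 bases and occurred in 2 of all 32851 windows. Because it was picked as shared by these 2 windows, that count could not be lower, and its rarity was not tested. The stretch holds a pair of RUNX motifs, TGTGGT on the opposite strand, shown in capitals. It is printed because it is sequence shared by the promoter regions of the 2 genes that fell. It lies at chr16:92826030-92826051, minus strand, in Runx1, beginning at base 24 of the transcribed side, and at chr17:44814588-44814609, minus strand, in Runx2, beginning at base 19.
Runx1 and Runx2 shared stretch: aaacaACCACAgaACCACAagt

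The Runx2 window held a further RUNX match 80 bases before the RefSeq start (chr17:44814690-44814719, minus strand) and C/EBP matches 164 and 48 bases before it (chr17:44814773-44814802 and chr17:44814657-44814686, minus strand). In GENCODE M21 the gene begins further upstream, at 44814797, so these matches lie within the gene as placed there. They are shown because they are matches to the motifs of both families in the gene with the larger fold difference. Each is given with flanking bases and the match in capitals, the RUNX match and the C/EBP match at 48 bases being on the strand opposite to the gene.
Runx2 RUNX match: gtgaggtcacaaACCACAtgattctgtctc
Runx2 C/EBP match at 164 bases: aaggaaaaagaTTGAGAAAgagggagggaa
Runx2 C/EBP match at 48 bases: agtaatagtgcTTGCAAAAaataggagttt

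Motifs were searched on both strands. TGTGGT occurred in 16.8% of all windows and the C/EBP letters TTNNGNAA in 40.7%, so single matches are common. The other motifs searched were the EGR motif GCGNGGGCG (5.55% of windows), the AP-1 motif TGANTCA (7.81%) and the cyclic AMP response element core TGACG (20.8%). The proximal Runx1 window held an EGR match and so did the Cebpa window. The Cebpb window held 3 matches to TGACG, whereas the Cbfb and Cebpg windows held none of the 5 motifs. These matches are letters in the windows, and binding was not measured here.

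Library totals ran from 1820545 to 8291024 counts. The 10 granulosa markers summed to 85570 to 107490 CPM (counts scaled to a library of 1e+06 counts) in Control and 77837 to 114434 CPM in Tyrphostin libraries, nearly all of it from Inha, Inhba and Gja1. Among the others, Fshr and Amhr2 had Control means of 8.31 and 7.56 CPM, and Amh and Foxl2 were never above 4 and 30 counts. Of the 8 granulosa markers tested, edgeR called 3 higher with Tyrphostin, namely Hsd17b1 by 2.64, Nr5a2 by 2.18 and Fshr by 0.83 on the log2 scale, and none lower. Among all 9603 genes tested, 4.35% were called higher and 6.25% lower. Summed over 9 theca and stroma markers, levels were 267 to 2163 CPM in Control and 273 to 3090 CPM in Tyrphostin libraries, and the sum over 9 oocyte markers was 22.4 to 108 and 23.5 to 322 CPM. The 10 leukocyte markers summed to 19.6 to 487 CPM in Control and 23 to 877 CPM in Tyrphostin libraries, with Itgam at 0 in every library, and the 7 endothelial markers to 8.54 to 92.7 and 8.77 to 35 CPM. Control 7, Control 8 and Tyrphostin 5 had the highest theca and leukocyte sums. In these bulk libraries, fewer cells of a type and less RNA per cell cannot be told apart.

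With Tyrphostin, Runx1 and Runx2 transcripts fell, while no other gene of the 7 passed the test. Runx1 was 2.9-fold and Runx2 4.51-fold lower than in Control. Of the 7 genes, 6 had enough counts to be tested, and 2 of these 6 were called, both lower, against a background of 10.6% of the 9603 genes tested called in either direction with 6.25% called lower and 4.35% called higher. The test was edgeR's quasi-likelihood test on the 17 libraries, with batch in the model and a call at a Benjamini-Hochberg adjusted p under 0.05.

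Runx1 (chromosome 16, 92601466 to 92826149, minus strand, GRCm38) encodes a factor known for its role in blood cell formation and induced by the ovulatory signal in granulosa cells. In batch 1 its level in the 6 Control libraries had a lowest value of 210 CPM, a median of 279 and a highest of 417, and the Tyrphostin libraries were at 98.1, 83.6 and 144 CPM. In batch 2 the Control libraries were at 345, 374, 718, 419 and 514 CPM and the Tyrphostin libraries at 260, 109 and 73.9 CPM. Every Tyrphostin library was below every Control library of its own batch, which held for 6.3% of genes tested in batch 1, 5.08% in batch 2 and 2.21% in both.

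Over both batches, 5 of the 6 Tyrphostin libraries were below all 11 Control libraries. All 6 were for 1% of genes tested, a stricter order that Runx1 did not meet. The share of genes with 5 below was not counted. The exception for Runx1, Tyrphostin 4 at 260 CPM, lay above 2 batch 1 Control libraries, at 210 and 226 CPM. Mean CPM was 372 ± 146 over the 11 Control libraries and 128 ± 69 over the 6 Tyrphostin libraries (± SD). The log2 fold change was -1.54 ± 0.25 (SE; 95% interval -2.05 to -1.02; edgeR adjusted p = 0.000228).

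Runx2 (chromosome 17, 44495987 to 44814797, minus strand), whose product is the master regulator of bone formation and also acts in the corpus luteum, had the larger fold difference of the pair. Its batch 1 Control libraries had a lowest value of 55.9 CPM, a median of 67.6 and a highest of 99.8, and the Tyrphostin libraries were at 15.2, 16.6 and 18.7 CPM. All 3 Tyrphostin libraries of batch 1 were thus well below the lowest Control library, and they were close to one another. Every Tyrphostin library was below every Control library of batch 1 for 6.3% of genes tested.

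In batch 2 the Control libraries were far more scattered, at 9.71, 29.4, 69.9, 47.7 and 63.6 CPM, and the Tyrphostin libraries were at 13.9, 7.55 and 4.66 CPM. Control 7, at 9.71 CPM (37 counts), was the lowest Control library and fell among the Tyrphostin values. That library and Control 8, the next lowest, belong to the same set by their library names. They also had high theca and stroma sums, 2163 and 2027 CPM, and high leukocyte sums, 313 and 487 CPM. The share of counts from mitochondrial genes was 0.175% in Control 7, 1.74 to 2.83% in every remaining Control library, and 0.781, 1.32 and 0.797% in the Tyrphostin libraries of batch 2. Tyrphostin 5 had higher sums of both lists and a Runx2 level of 7.55 CPM. Lower sums, 1089 and 47.6 CPM, were found in Tyrphostin 6, whose Runx2 level was 4.66 CPM. The part of these markers and of the mitochondrial share in the low Runx2 was not tested.

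Mean Runx2 CPM was 58.2 ± 23.7 over the 11 Control libraries and 12.8 ± 5.49 over the 6 Tyrphostin libraries (± SD). The log2 fold change was -2.17 ± 0.32 (SE; 95% interval -2.83 to -1.51; edgeR adjusted p = 9.87e-05). Among all genes tested, Runx2 had the 56th lowest log2 fold change and Runx1 the 141st lowest.

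**Figure D1:**
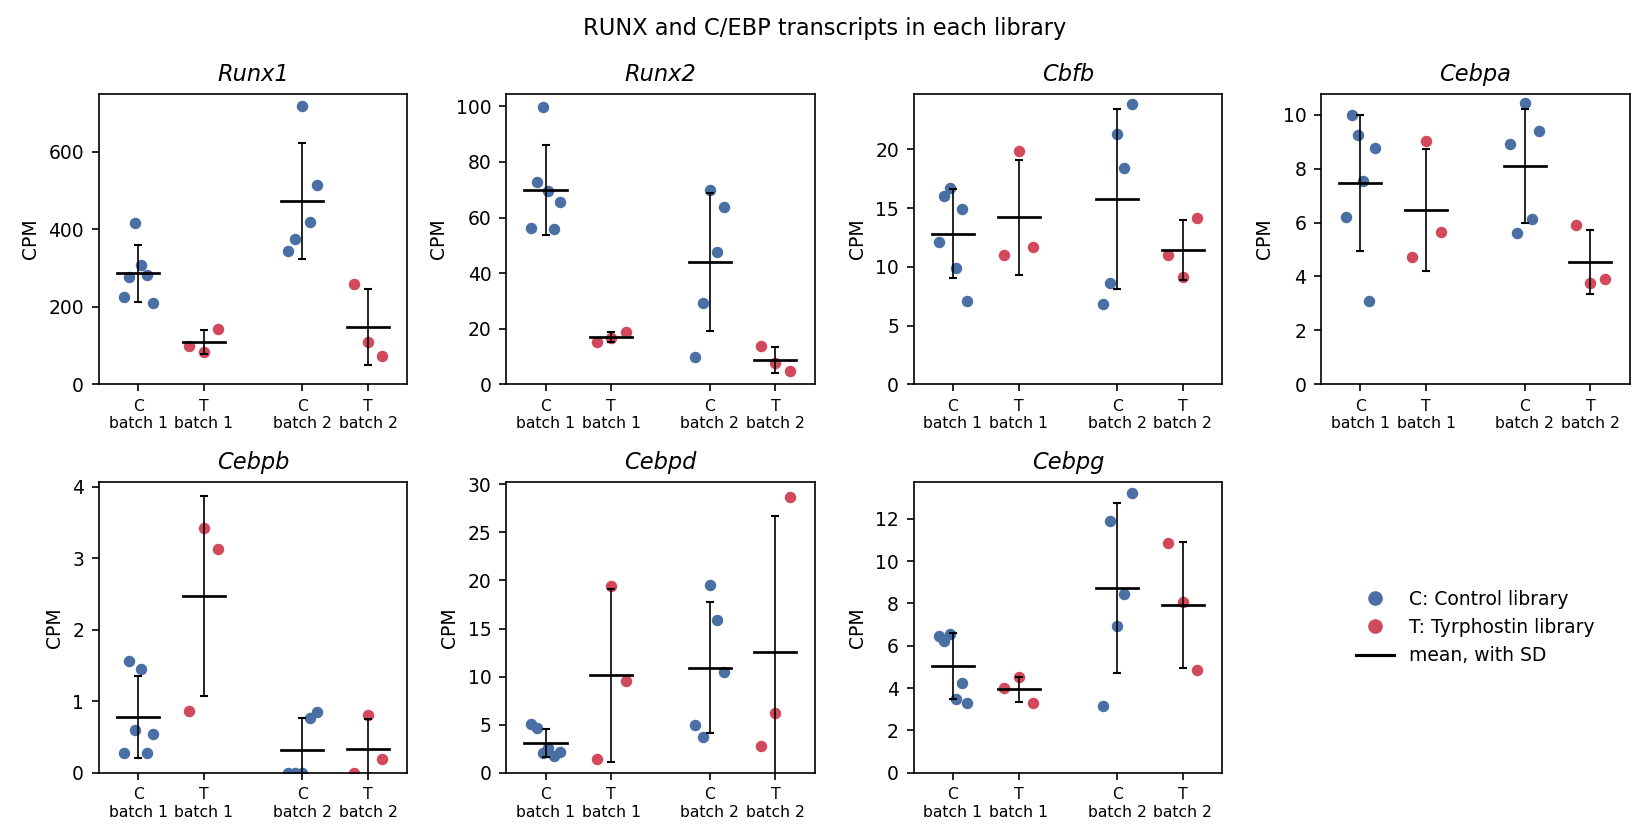
Level of each of the 7 genes in every library, in CPM on linear axes that start at 0 and differ between panels, by group and batch. Points are libraries and bars are the mean with SD. The Tyrphostin libraries lie below the Control libraries of their batch for Runx1 in both batches, and for Runx2 in batch 1, where they sit between 15.2 and 18.7 CPM.

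Cbfb (chromosome 8, 105170674 to 105217989, plus strand), which encodes the partner shared by both RUNX proteins, did not pass the test. In Control libraries it ran from 6.82 through a median of 15 to 23.9 CPM, and in Tyrphostin libraries from 9.16 through 11.4 to 19.9 CPM, so the groups overlapped over nearly their whole range. The log2 fold change was -0.14 ± 0.26 (SE; 95% interval -0.67 to 0.39; edgeR adjusted p = 0.804). The interval leaves room for a fall or a rise, but its lower end is closer to 0 than the upper ends for Runx1 and Runx2.

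Levels of different genes were compared per kilobase (kb) of the union of exons in GENCODE M21. This union was 12025 bases for Runx1, whose longest transcript has 5861, and 8837 for Runx2, whose longest has 6463. For Cbfb they were 3480 and 2891 bases and for Cebpa 2636 and 2626. A longer union gives a lower level per kb, and other lengths were not tried. The sum of the Runx1 and Runx2 levels per kb was 9.95 ± 3.03 times the Cbfb level per kb in Control (SD, n = 11; range 6.78 to 15.2) and 3.6 ± 2.13 times in Tyrphostin libraries (SD, n = 6; range 1.55 to 7.35). The ratio was lower in most Tyrphostin libraries, and the ranges overlapped at their edges. It describes transcripts, and proteins were not measured.

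The balance between the 2 RUNX genes also varied between batches. In batch 1, Runx2 made up 19.8 ± 2.46% of the summed Runx1 and Runx2 counts in Control (SD, n = 6) and 13.8 ± 2.55% in Tyrphostin libraries (SD, n = 3). In batch 2 it made up 8.03 ± 3.28% (SD, n = 5), with Control 7 lowest at 2.74%, and 5.83 ± 0.723% (SD, n = 3). The groups overlapped in this share in both batches, in batch 1 with Tyrphostin 2 at 16.59% and Control 5 at 16.54%. Each batch 2 mean was below both batch 1 means. Gene counts do not separate transcripts of the distal and proximal Runx1 promoters.

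**Figure D2:**
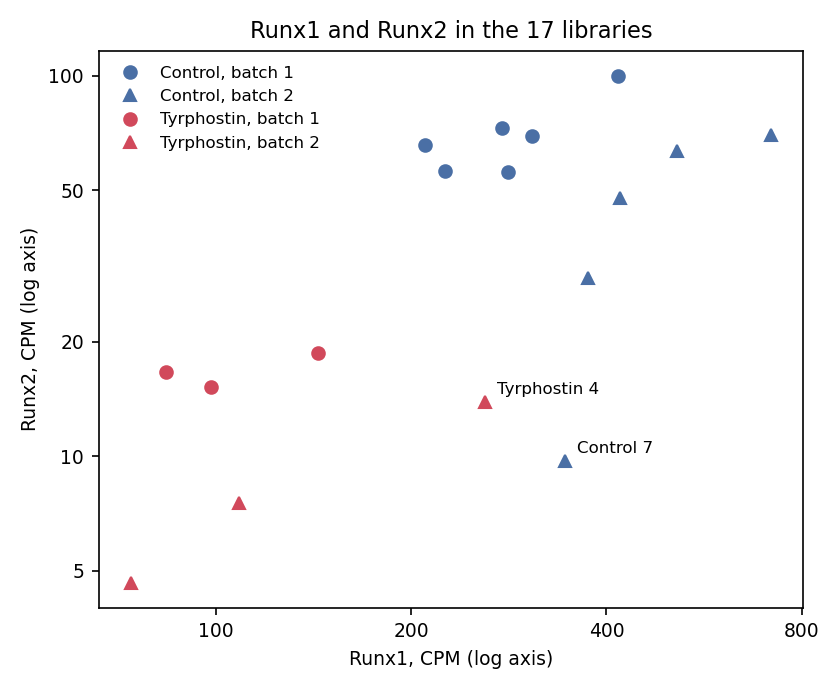
Runx1 level (x axis, CPM, log axis) against Runx2 level (y axis, CPM, log axis) in the 17 libraries, with colour for group and marker shape for batch. Tyrphostin libraries lie toward the lower left, with Runx2 at 4.66 to 18.7 CPM, and Control 7 stands apart with 345 CPM of Runx1 and 9.71 CPM of Runx2.

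Across the 17 libraries Runx1 and Runx2 levels moved together. After the batch means were removed from log2 CPM, Pearson's r was 0.92, and after the treatment means were removed as well it was 0.70. By the latter measure r was 0.67 for Runx2 with Cebpg, 0.62 for Runx2 with Cbfb and 0.60 for Cbfb with Cebpd. The remaining pairs of tested genes were at 0.44 or lower. All are descriptions, given with no p because the libraries share batch and treatment, and Runx1 and Runx2 both fell.

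By mean level per kb, the order in Control was Runx1 at 30.9 CPM per kb, Runx2 at 6.59, Cbfb at 4.07, Cebpa at 2.94, Cebpd at 1.77, Cebpg at 1.2 and Cebpb at 0.382. Runx1 exceeded Runx2 in 11 of 11 libraries and Runx2 exceeded Cbfb in 10. Below that, neighbours were less separated, with Cbfb above Cebpa in 8 libraries, Cebpa above Cebpd in 9 and Cebpd above Cebpg in 8. Cebpg exceeded Cebpb in 10 libraries.

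In Tyrphostin libraries Runx1 was still first at 10.6 CPM per kb and above Cbfb, at 3.69, in 6 of 6 libraries. Runx2, at 1.45 CPM per kb, was now in the fifth place. By the union of exons, it lay below Cebpa, at 2.09 CPM per kb, in all 6 libraries and above Cebpg, at 1.06, in 3 of 6. The place of Runx2 may depend on the length used, and no other length was tried. Cebpd, at 3.03 CPM per kb, was not separated from Cebpa, exceeding it in 4 of 6 libraries.

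None of the C/EBP genes tested passed the threshold, and all were below Runx1 in mean level per kb. Cebpa (chromosome 7, 35119293 to 35121928, plus strand) encodes C/EBPα, a factor known for fat and myeloid cell differentiation and, with C/EBPβ, for luteinization. It ran from 3.1 through a median of 8.76 to 10.4 CPM in Control and from 3.77 through 5.2 to 9.01 CPM in Tyrphostin libraries. The Cebpa log2 fold change was -0.48 ± 0.25 (SE; 95% interval -0.99 to 0.04; edgeR adjusted p = 0.259). In batch 2 all its Tyrphostin values but one, 5.9 CPM, were below the lowest Control value of 5.6 CPM. The share of genes with such an order was not counted. In batch 1 the groups overlapped. Counts were 11 or more in every library.

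Cebpb (chromosome 2, 167688915 to 167690418, plus strand) encodes C/EBPβ, a target of ERK1/2 signalling required for luteinization in mice. It was close to the detection limit and was not tested. The Control libraries of batch 1 held 1, 7, 2, 5, 1 and 1 counts and the Tyrphostin libraries 6, 22 and 16. In batch 2 the Control libraries held 0, 0, 0, 4 and 4 counts and the Tyrphostin libraries 0, 3 and 1. The highest counts, 22 and 16, were thus in batch 1 Tyrphostin libraries, and in batch 2 the groups overlapped.

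A count of 0 allows a level of up to 3 counts, 0.336 to 1.64 CPM depending on the library. A fit with no filter on low counts gave Cebpb a log2 fold change of 1.01 ± 0.64 (± SE, adjusted p = 0.449 by edgeR), and in batch 1 of 1.63 ± 0.69 (SE; edgeR adjusted p = 0.207). Of the exonic bases of Cebpb, 20.7% overlap Tmem189 on the other strand, which had 2 to 11 counts in Control and 4 to 15 in Tyrphostin libraries. Whether counting used strand is not stated, so reads of the overlap cannot be assigned with certainty. The same limit holds for the called genes. Of exonic bases, 5.87% in Runx2 overlap the antisense gene Runx2os1 and 0.881% in Runx1 the antisense gene Gm26626.

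Cebpd (chromosome 16, 15887286 to 15891031, plus strand) encodes C/EBPδ, a factor induced in acute inflammatory responses, and varied widely between libraries. The Control libraries of batch 1 ran from 1.69 through a median of 2.4 to 5.12 CPM, and the Tyrphostin libraries were at 1.43, 19.4 and 9.56 CPM. Tyrphostin 2 and Tyrphostin 3 were above every Control library of their batch and Tyrphostin 1 was below every one. The share of genes with this order was not counted.

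In batch 2 the Cebpd level was 4.99, 3.7, 19.5, 15.9 and 10.5 CPM in Control and 2.74, 6.2 and 28.7 CPM in Tyrphostin libraries. The latter spanned the whole Control range. Over both batches the log2 fold change was 0.96 ± 0.55 (SE; 95% interval -0.20 to 2.11; edgeR adjusted p = 0.317). The libraries with the most Cebpd, Tyrphostin 6, Control 9, Tyrphostin 2 and Control 10, had leukocyte sums of 47.6, 126, 30.5 and 63.8 CPM and oocyte sums of 322, 30.4, 53.3 and 83.6 CPM. The oocyte sum of Tyrphostin 6 was the highest of the 17 libraries. Tyrphostin 5, with the highest leukocyte sum, 877 CPM, had 6.2 CPM of Cebpd. The part of these markers in the Cebpd level was not tested. Of its exonic bases, 15% overlap the gene Spidr, whose log2 fold change was -0.28 (edgeR adjusted p = 0.598).

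Cebpg (chromosome 7, 35046422 to 35056573, minus strand) encodes C/EBPγ, a short family member without the usual activation domain that pairs with other zipper proteins. It ran from 3.15 through a median of 6.47 to 13.2 CPM in Control and from 3.32 through 4.68 to 10.8 CPM in Tyrphostin libraries, and the groups overlapped. The log2 fold change was -0.26 ± 0.27 (SE; 95% interval -0.81 to 0.29; edgeR adjusted p = 0.619).

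Fitted separately, batch 1 called the same 2 genes, both lower, against 6.73% of 9423 genes called in either direction and 3.79% called lower. The batch 1 log2 fold change of Runx1 was -1.39 ± 0.27 (SE; edgeR adjusted p = 0.00387) and that of Runx2 -2.05 ± 0.25 (SE; edgeR adjusted p = 5.88e-05). For Cebpd it was 1.68 ± 0.56 (SE; edgeR adjusted p = 0.0913), which did not pass, and this value rested on single libraries. Without Tyrphostin 2 it was 0.79 (edgeR adjusted p = 0.577), and without Tyrphostin 1 it was 2.21 and passed (edgeR adjusted p = 0.0039).

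In batch 2 edgeR called none of the 6 genes tested, against 0.621% of 9830 genes called in either direction and 0.427% called lower. Runx1 had a log2 fold change of -1.68 ± 0.43 (± SE, adjusted p = 0.111 by edgeR) and Runx2 of -2.32 ± 0.61 (SE; edgeR adjusted p = 0.138). Runx1, Runx2 and Cebpa were the 3 genes with an unadjusted p under 0.05 there, beside 10.7% of all genes tested, and DESeq2 called Runx1 and Runx2. Leaving out Control 7 gave Runx2 a log2 fold change of -2.56 (edgeR adjusted p = 0.0127), and leaving out Tyrphostin 4 gave Runx1 -2.38 (edgeR adjusted p = 0.046). Each gene passed in just that 1 of the 8 fits with a library left out. The edgeR adjusted p was highest at 0.426 for Runx2, without Tyrphostin 6, and at 0.391 for Runx1, without Tyrphostin 5.

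The difference of the treatment effect between the batches was tested directly. No gene among the 9603 passed with edgeR, DESeq2 or limma-voom (0% called), and 342 genes (3.56%) had an unadjusted edgeR p under 0.05, none of the 6 genes here among them. The difference, batch 2 minus batch 1, was -0.28 ± 0.48 log2 units for Runx1 and -0.26 ± 0.60 for Runx2 (SE). It was -1.43 ± 1.08 for Cebpd, so the intervals remained wide, from -3.72 to 0.86 in the last case.

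**Figure D3:**
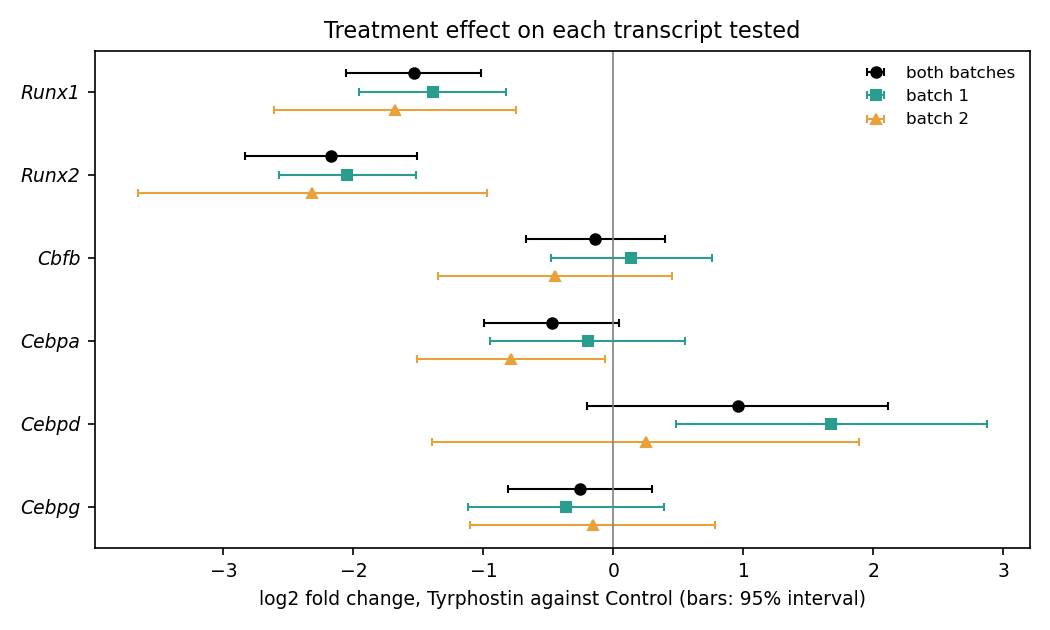
Log2 fold change, Tyrphostin against Control, of the 6 genes tested (x axis), for both batches together and for each batch, with 95% intervals as bars. The intervals of Runx1 and Runx2 lie below 0 in all 3 fits, from -2.83 to -1.51 for Runx2 over both batches, and those of Cbfb and Cebpg cross 0 in each.

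Within the Control group, Cebpd differed between the batches. It was higher in batch 2 by 1.77 ± 0.44 log2 units (SE; edgeR adjusted p = 0.0174), against 11% of 9128 genes called in either direction and 5.5% called higher. Leaving out Control 10 ended this call (edgeR adjusted p = 0.0547). The Cebpd means were 3.06 ± 1.46 CPM in batch 1 (SD, n = 6) and 10.9 ± 6.83 CPM in batch 2 (SD, n = 5), where Control 7 and Control 8 stayed near the batch 1 level.

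Runx1 was 0.74 ± 0.24 log2 units higher in batch 2 Control libraries (SE; edgeR adjusted p = 0.0561) and Runx2 -0.66 ± 0.37 (SE; edgeR adjusted p = 0.284), neither of which passed. Runx1 did pass in this comparison without Control 3 or without Control 7, and Cebpg, at 0.81 ± 0.35 (SE; edgeR adjusted p = 0.149), passed without Control 7.

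Among relatives and corepressors of RUNX, a list of 10 genes of which 7 were tested, 1 gene was called higher and 1 lower. The median log2 fold change was -0.33, beside a median of 5.4e-05, 418 called higher and 600 called lower over all 9603 genes. Cbfa2t3, which encodes a corepressor of the ETO family, rose from a mean of 3.66 ± 2.27 CPM in Control to 16.4 ± 4.09 CPM with Tyrphostin (± SD over 11 and 6 libraries), a log2 fold change of 2.16 ± 0.27 (± SE, adjusted p = 1.33e-05 by edgeR). Its family member Cbfa2t2 had a log2 fold change of 0.31 (edgeR adjusted p = 0.314). Aes, a short relative of the Groucho corepressors, fell by 0.84 on the log2 scale (edgeR adjusted p = 0.0282). This call was lost without any 1 of Control 2, Tyrphostin 1, Tyrphostin 2, Tyrphostin 4, Tyrphostin 5 and Tyrphostin 6 (edgeR adjusted p = 0.0531 to 0.0834). The third RUNX gene, Runx3, had at most 4 counts and Runx1t1 at most 8 in any library.

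Among relatives, partners and regulators of C/EBP factors, 8 of 10 genes were tested, and 1 was called higher and 1 lower. The median log2 fold change was -0.25, beside 4.35% called higher and 6.25% called lower over all genes tested. The called pair were both Tribbles pseudokinases, known as adaptors that bring C/EBPα to the ubiquitin ligase COP1. Trib1 fell from a mean of 27.3 ± 9.59 CPM to 8.22 ± 2.65 CPM, a log2 fold change of -1.65 ± 0.21 (± SE, adjusted p = 1.17e-05 by edgeR). Trib2 rose from 176 ± 117 CPM to 461 ± 243 CPM, a log2 fold change of 1.46 ± 0.20 (± SE, adjusted p = 3.8e-05 by edgeR). Cop1 itself, at -0.10, and the zipper partners Atf4, at -0.13, and Ddit3, at -0.05, did not pass. Cebpe had at most 3 counts in any library.

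Of 8 genes that earlier ovarian work ties to RUNX or C/EBP factors, 6 were tested, 1 was called higher and 3 lower. Their median log2 fold change was -0.85, and over all genes tested 4.35% were called higher and 6.25% lower. Ptgs2, the prostaglandin synthase induced at ovulation, fell by 2.40 on the log2 scale (edgeR adjusted p = 5.33e-07), from a mean of 7362 ± 4256 CPM to 1306 ± 832 CPM (± SD). Rgcc, a cell cycle regulator, fell by 2.45 (edgeR adjusted p = 0.00206), and Star, which carries cholesterol into mitochondria for steroid synthesis, fell by 0.99 (edgeR adjusted p = 0.0143). Cyp19a1, the aromatase that makes estrogen and falls at luteinization, was higher by 2.35 on the log2 scale (edgeR adjusted p = 2.84e-07), from 159 ± 66.6 CPM to 777 ± 172 CPM. Cyp11a1, which makes pregnenolone from cholesterol, had a log2 fold change of 0.05 and the metallothionein Mt1 of -0.70, and neither passed. Hapln1 and Ptgds had too few counts to be tested.

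A list of 10 genes of cell cycle exit and luteal function was tested whole, with 4 called higher, 1 lower and a median log2 fold change of 0.02. The shares over all genes tested were 4.35% called higher and 6.25% called lower. Sfrp4, a secreted WNT modulator, had means of 7052 ± 3492 CPM in Control and 2689 ± 1630 CPM with Tyrphostin (± SD) and a log2 fold change of -1.50 that edgeR did not call (adjusted p = 0.101). Prlr, the prolactin receptor, was higher by 1.73 (edgeR adjusted p = 3.66e-06), Ccnd2, the granulosa cyclin D2, by 1.43 (edgeR adjusted p = 8.71e-05), Lhcgr, the luteinizing hormone receptor, by 1.02 (edgeR adjusted p = 0.00765), and Hsd3b1, which makes progesterone from pregnenolone, by 0.74 (edgeR adjusted p = 0.00821), all on the log2 scale. Akr1c18, the enzyme that inactivates progesterone, fell by 2.27 ± 0.69 (SE; edgeR adjusted p = 0.0421). The Control mean of this gene was 7.53 ± 8.67 CPM (SD, n = 11), with a lowest value of 0, and its call was lost when any of Control 1, 2, 3, 7 and 8 or Tyrphostin 1, 2, 3, 4 and 6 was left out (edgeR adjusted p = 0.0533 to 0.106). The difference between batches had an unadjusted edgeR p of 0.00177 for Prlr, 0.0346 for Cbfa2t3 and 0.0379 for Cyp19a1. None passed after adjustment, and other called genes of the related lists were above 0.05 unadjusted. In that order, log2 fold changes were 2.27, 2.75 and 2.79 in batch 1 and 1.11, 1.59 and 1.86 in batch 2. In batch 2 alone, only Ptgs2 and Cyp19a1 of the called genes of the related lists passed (edgeR adjusted p = 0.0127 and 0.00887), beside 0.621% of all genes tested.

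**Figure D4:**
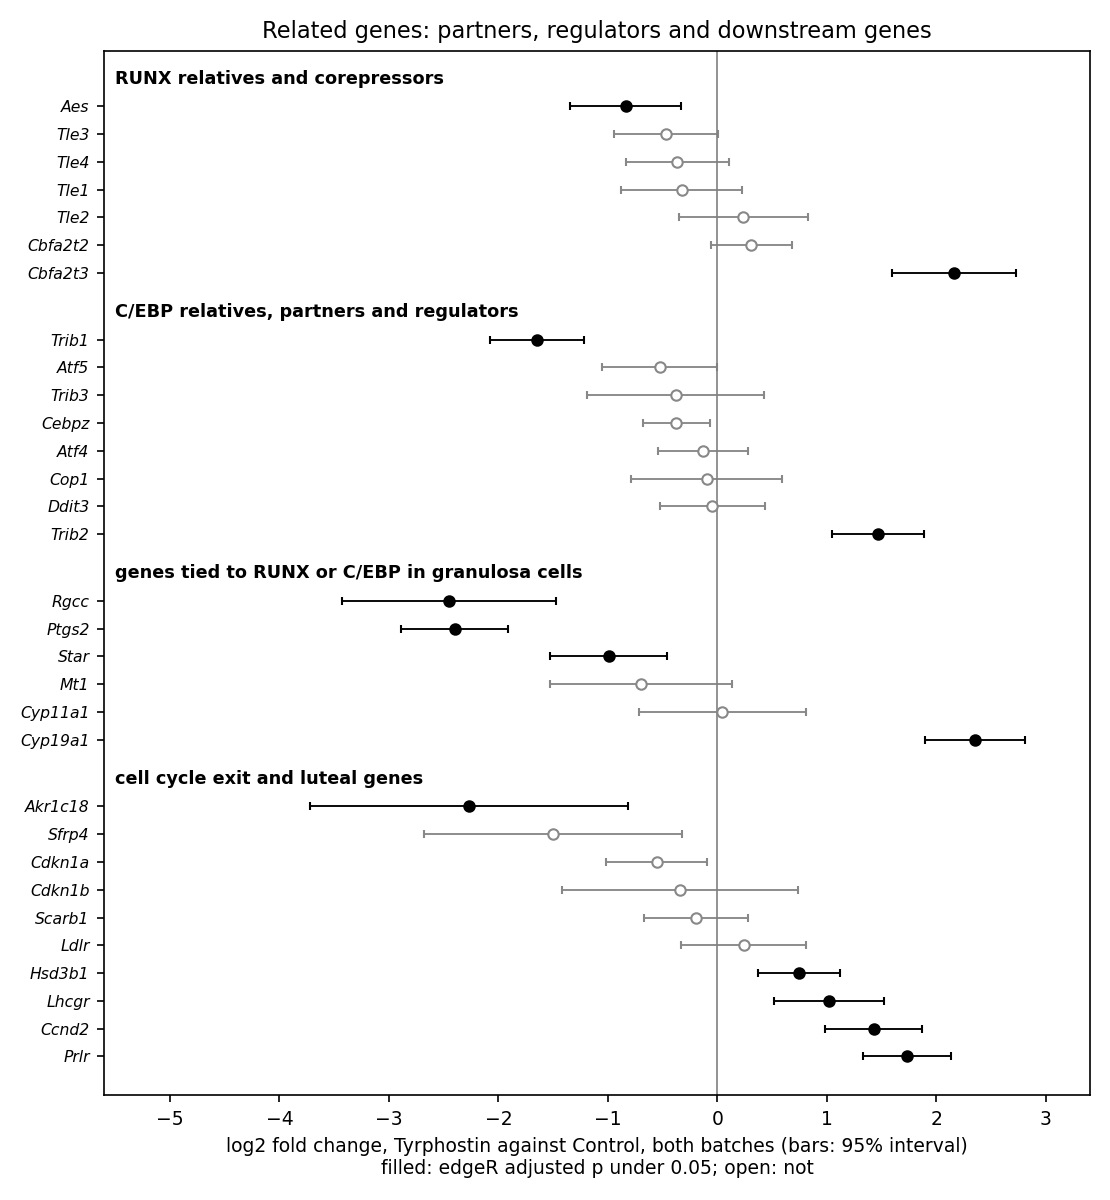
Log2 fold change, Tyrphostin against Control over both batches (x axis), of the tested genes in the 4 related lists, with 95% intervals as bars. Filled points passed an edgeR adjusted p under 0.05 and open points did not; Cbfa2t3, Trib2, Cyp19a1 and Prlr lie at 1.46 or above and Trib1, Ptgs2, Rgcc and Akr1c18 at -1.65 or below.

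Genes with patterns most like those of the RUNX genes were found among 6312 genes of sufficient level, by Pearson's r of log2 CPM over 17 libraries after removing batch means. For Runx1 they were Chst15 (r = 0.94), Alcam (0.94) and Chst11 (0.93), which encode a pair of chondroitin sulfotransferases and a cell adhesion molecule. For Runx2 they were the ubiquitin ligase gene Cblb (0.97), the ceramide synthase gene Cers6 (0.95) and the ubiquitin ligase gene Rnf125 (0.95). Since all 6 also fell with Tyrphostin, by 0.91 to 2.15 on the log2 scale, the treatment is a part of these values. With treatment means removed as well, r was 0.76, 0.74 and 0.73 for the Runx1 set and 0.89, 0.89 and 0.80 for the Runx2 set, in the same order.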

How the data were processed

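Smart-Seq2 libraries (full length, without molecular identifiers) were made from 17 samples, per the labels' protocols. The deposited values are whole-number counts of reads per gene. The submitters' processing notes name STAR, HTSeq and GRCm38; versions, annotation and strand setting are not given in the sources used here. No 2 libraries of a group and batch agreed within sampling noise, chi-square over its degrees of freedom being 7.85 to 57 in 31 pairs.

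Counts were filtered with filterByExpr on treatment, scaled by TMM and fitted with edgeR 4.0.16 in R 4.3.3 (robust glmQLFit, batch as a term), with Benjamini-Hochberg adjustment over all genes tested. CPM are on TMM-scaled library sizes, whose floor of 3 counts was 0.336 to 1.64 CPM. Intervals cover 95%. Alternatives used DESeq2 1.42.0, limma 3.58.1, other scalings, filters, covariates and libraries left out. Gene positions, exon lengths and overlaps are from GENCODE M21 and promoter windows from RefSeq (GRCm38.p6).

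The 7 genes and all lists were chosen with earlier results of these data known. All 7 are named. Of other lists, genes past the threshold are named, up to 5 by lowest p, and the 3 genes of average log2 CPM of at least 3 most correlated with each called gene; other list genes were named after their values were seen.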

Additional observations from a re-analysis of the deposited data

How the results depend on the processing

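Runx1 and Runx2 were the 2 genes called over both batches under all 12 alternatives and with any 1 of the 17 libraries left out. Runx1 ranged from -1.63 to -1.37 log2 units over the alternatives and from -1.77 to -1.38 with a library left out, and Runx2 from -2.26 to -2.03 and from -2.33 to -2.04. Total-count scaling moved the median of all genes to 0.15. Replicate numbers are shared by groups, but same-numbered libraries correlated at 0.03 to 0.32 and numbers 4 to 6 cross the batches, so they are treated as numbers only; with a replicate block 2 of these genes were called over both batches and 2 in batch 1, and among all genes 624 and 848. With Control libraries summed by set, 239 genes were called in batch 1, against 634 in the main fit of that batch.

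In batch 2, where none of the genes was called, 1 was called with no filter on low counts, 2 with DESeq2, and 0 to 1 with a library left out. Between Control batches, 1 gene was called, against 2 with total-count scaling, 2 with no filter, 2 with DESeq2, 0 with limma-voom, 0 at an adjusted p under 0.01 and 0 to 3 with a library left out. In batch 1, Cebpd passed with no filter and with DESeq2.

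Some small differences changed sign. In batch 1, Cbfb was -0.089 with the replicate block and -0.17 (without Tyrphostin 2) to 0.30 with a library left out. In batch 2, Cebpd was -0.11 with limma-voom and -1.29 (without Tyrphostin 6) to 0.74 with a library left out, and Cebpg -0.47 to 0.10, above 0 without Tyrphostin 6 and, at 0.020, without Control 11. With a library left out, the difference between batches was -0.96 to 0.038 for Runx1 and -0.79 to 0.042 for Runx2, above 0 without Tyrphostin 6, and -0.089 to 0.47 for Cebpg, below 0 without Tyrphostin 4. Cebpa between Control batches was -0.061 (without Control 5) to 0.22. The cause of these changes was not tested.

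For the related lists, the same alternatives were applied after the data were seen. Calls among RUNX relatives numbered 1 in place of 2 with total-count scaling, at an adjusted p under 0.01 and with the replicate block, and 1 to 3 with a library left out. Cell cycle exit and luteal genes had 2 called with no batch term and 3 with Control libraries summed by set, in place of 5; Ccnd2 (first setting), Lhcgr and Akr1c18 (both) were those lost. With DESeq2 and with limma-voom 6 were called, Sfrp4 being added. Akr1c18 was called in 5 of the 11 alternatives that tested it. Its call was also lost with total-count scaling, no filter, total count as covariate and an adjusted p under 0.01. Star lost its call with the replicate block (edgeR adjusted p = 0.0987). Counts of 0 to 22 limit what can be shown for Cebpb.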
